A study of Pogonatum aloides with 7 samples.

Results

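In the moss Pogonatum aloides, 135 assembled transcripts were present in every library and stood at least 10 times higher in all 5 capsule libraries than in the young gametophyte. They were chosen by their RPKM (reads scaled to transcript length and library total) from 74566 unigenes, the sequences that the authors assembled from RNA reads. A unigene qualified if it had a value in all 6 libraries, if its lowest capsule value was at least 10 times its gametophyte value, if its highest capsule value was under 2 times the second highest, and if it did not increase at every step from stage 1 to stage 5. Up to 200 would have been kept, in the order of the lowest capsule RPKM, and fewer met the rule. Of the 18218 unigenes listed in all 6 libraries, 167 met the ratio, 29 of these were left out for a single high capsule stage and 3 for a steady increase. The members were 0.741% of the 18218. The identifiers carry no gene names, so members are described by their levels, and only 4 sequences are given by identifier. The others are called by their rank in the lowest capsule RPKM, from 1 to 135.

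All samples were wild type by their labels. Capsules of stages 1, 2 and 3 were labelled small, those of stage 4 middle and those of stage 5 big, and the young gametophytes were labelled seedlings. Total RNA of each was sequenced as 1 library, so that no group had a replicate. The sources used here do not say how many capsules went into a library or whether the calyptra was removed. The implied totals were 5458335 to 5752394 reads for the capsule libraries and 3821669 for the gametophyte. A single read on a 1 kb unigene is thus worth 0.174 to 0.183 RPKM in the capsules and 0.262 RPKM in the gametophyte.

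The capsule is the spore-bearing end of the moss sporophyte, the diploid generation, which grows attached to the haploid leafy gametophyte and takes up nutrients from it through its foot. Inside the capsule the sporogenous cells go through meiosis and form spores. These cells lie around a central columella and inside a jacket, and towards the mouth are the tissues that make the peristome. In this genus a hairy calyptra of gametophyte origin covers the capsule. A capsule library therefore mixes many cell types, and more cells of a type cannot be told apart from more RNA per cell.

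The members spanned a wide range of abundance. Their lowest capsule value ran from 1.05 to 4757 RPKM with a median of 19.9 RPKM, and their gametophyte value from 0.0583 to 25.3 RPKM with a median of 0.708 RPKM. In 20 members every capsule library reached 100 RPKM, and in 87 every one reached 10 RPKM. Over stages 1 to 5 the medians of the members were 29.4, 44.8, 39.2, 40.4 and 36.3 RPKM, against 0.708 RPKM in the gametophyte. Not all members were abundant in the capsule. The last by rank, a unigene of 2612 bases, averaged 1.33 RPKM over the 5 stages and had 1 read in the gametophyte.

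**Figure D1:**
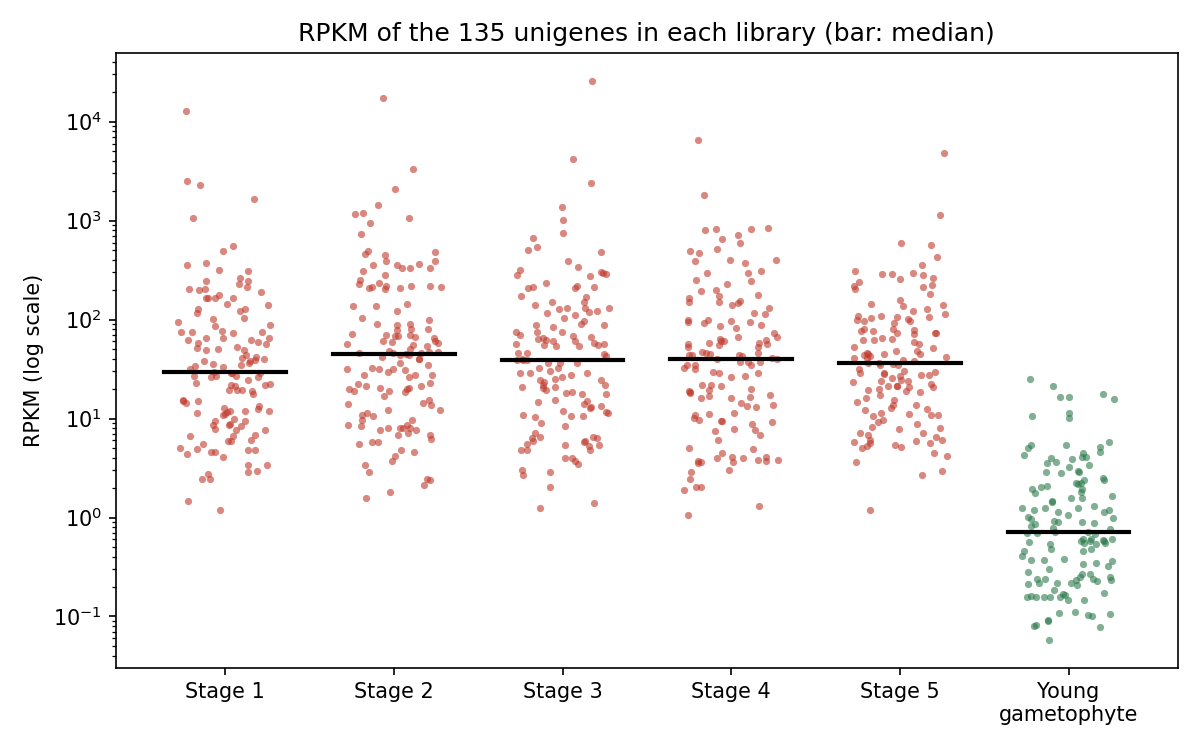
RPKM (log scale) of the 135 unigenes in the 5 capsule libraries (red) and the young gametophyte library (green); each point is 1 unigene and the bar is the median. Medians lay between 29.4 and 44.8 RPKM in the capsules and at 0.708 RPKM in the gametophyte, a separation fixed by the way the unigenes were chosen.

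Together the members held 4.37%, 6.01%, 6.70%, 3.23% and 2.49% of the summed RPKM in stages 1 to 5, against 0.0360% in the gametophyte. Counted in recovered reads, their share was 3.57%, 4.996%, 5.53%, 3.06% and 2.11% in stages 1 to 5, against 0.0444% in the gametophyte. The exact binomial 95% intervals of the read shares ran from 5.51% to 5.55% in stage 3, from 2.10% to 2.12% in stage 5 and from 0.0423% to 0.0466% in the gametophyte, and they cover counting error only. By either measure the share was highest in stage 3 and lowest in stage 5. A single member made much of this difference. Without the member of rank 1 the shares of summed RPKM were 2.47%, 3.44%, 2.97%, 2.33% and 1.74% in stages 1 to 5, against 0.0358% in the gametophyte, with the highest in stage 2. Among the 100 most abundant unigenes of each library, 5, 9, 6, 5 and 4 were members in stages 1 to 5 and 0 in the gametophyte. The members were chosen for low gametophyte values against the capsules, so the direction of this contrast was fixed by the rule.

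The most abundant member by far was CL3401.Contig3, a contig of 1053 bases. Its RPKM was 12653, 17433, 25725, 6496 and 4757 in stages 1 to 5, and 1.24 in the gametophyte, where it rested on 5 reads. It was highest in stage 3 and lowest in stage 5, 5.41-fold apart. Its lowest capsule value was 3828 times the gametophyte value, with an exact 95% counting interval from 1640 to 11792. Rank 2, Unigene23057, a single unigene of 1169 bases, had 2264, 3311, 2368, 1810 and 589 RPKM in stages 1 to 5, against 11.4 RPKM (51 reads) in the gametophyte. It too was lowest in stage 5, at 51.6 times the gametophyte value, with an interval from 39.1 to 69.4.

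The next members did not share one capsule profile. Rank 3 had 1665, 1156, 477, 831 and 1127 RPKM in stages 1 to 5, and 16.6 RPKM in the gametophyte. It was lowest in stage 3, the stage in which ranks 1, 4 and 5 were highest. Rank 4 had 547, 1186, 1376, 651 and 424 RPKM, and 21.4 RPKM in the gametophyte. Rank 5 had 2486, 2070, 4226, 829 and 352 RPKM, and 0.536 RPKM in the gametophyte, from 2 reads. By its average over the capsules, 1992 ± 1524 RPKM (SD, n = 5 stages), rank 5 lay close to rank 2 with 2069 ± 991 RPKM (SD, n = 5 stages). The SD here is the spread between stages, which are not replicates.

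Rank 6 was the most even of the first 10. It had 320, 450, 395, 399 and 306 RPKM in stages 1 to 5, against 25.3 RPKM in the gametophyte, which was the highest gametophyte value of any member and rested on 240 reads. Its ratio of 12.1 had an interval from 10.6 to 13.8. Ranks 7 and 8 were both highest in stage 2 and lowest in stage 5, at 1064 and 292 RPKM for rank 7, against 10.2 RPKM in the gametophyte, and at 1439 and 237 RPKM for rank 8, against 5.21 RPKM in the gametophyte. Ranks 9 and 10 were lowest in stage 1, at 213 and 203 RPKM, with 17.7 and 16.4 RPKM in the gametophyte. Among the first 10, the lowest capsule value was that of stage 5 in 7 members, the exceptions being ranks 3, 9 and 10.

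The size of the ratio was well determined for only a part of the members, because many gametophyte values were single reads. There was 1 gametophyte read for 51 members and there were 2 for 21, with a median of 2 reads, whereas the lowest capsule library had a median of 117 reads. At least 5 gametophyte reads were found for 51 members and at least 20 for 25. The ratio of lowest capsule to gametophyte RPKM ran from 10.05 to 3828 with a median of 18.6, and it reached 100 in 11 members. The lower limit of its counting interval was at least 10 for 48 of the 135 members and at least 2 for 122. The intervals allow neither for the choice of the lowest stage nor for the choice of members by a ratio of at least 10. The second highest ratio, 1074 for rank 16, came from 1 gametophyte read. This member had 139, 352, 274, 297 and 113 RPKM in stages 1 to 5, against 0.105 RPKM in the gametophyte, and the interval of its ratio ran from 192 to 42445. Rank 5, with 2 gametophyte reads, had the third highest ratio, 656, with an interval from 181 to 5418.

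Near the limit of the rule, values just inside and just outside differed little. The 3 lowest ratios inside were 10.05, 10.27 and 10.33, with 27, 12 and 4 gametophyte reads. The 3 highest outside were 9.974, 9.966 and 9.966, with 2, 1 and 1 gametophyte reads. The lowest ratio inside was that of rank 76, a contig of 4798 bases with 35.6, 18.9, 14.8, 27.1 and 42.6 RPKM in stages 1 to 5, against 1.47 RPKM in the gametophyte. The other two were rank 53, with 29.3 to 53.8 RPKM over the capsules against 2.86 RPKM in the gametophyte, and rank 48, with 36.9 to 87.9 RPKM against 3.57 RPKM. Their capsule values lay well inside the range of the other members. For the highest over the second highest capsule value, the last inside were 1.97, 1.93 and 1.93, and the first outside were 2.0004, 2.011 and 2.015. The 29 left out by this limit were highest in stage 5 in 10 cases, in stage 3 in 6, in stage 1 in 5, and in stages 2 and 4 in 4 each.

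**Figure D2:**
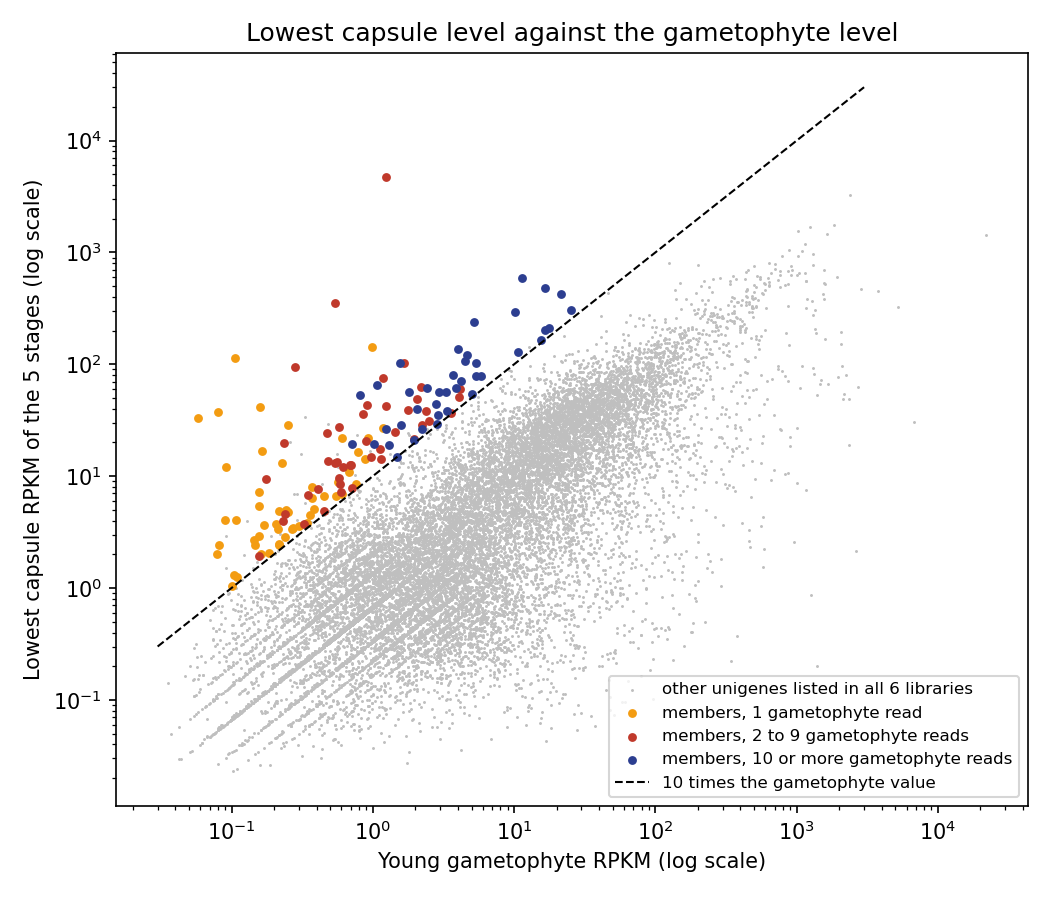
Lowest RPKM of the 5 capsule libraries against the young gametophyte RPKM (both log scales) for the unigenes listed in all 6 libraries; coloured points are the members by their number of gametophyte reads, and the dashed line is 10 times the gametophyte value. Members with 1 gametophyte read (51, orange) lie mostly at the low end, and the member at 4757 RPKM stands apart from the rest.

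In the fit over all unigenes (limma on log2(RPKM + 1), 5 capsules over the gametophyte, Benjamini-Hochberg adjustment), 107 of the 135 members were called higher on the capsule side (adjusted p under 0.05), where 2.51% of the 66294 unigenes tested were called higher. The rule used this contrast, so the count is a description. The fit takes the 5 stages as 1 side and assumes that the lone gametophyte library varies as they do. It called many more unigenes lower than higher on the capsule side, and the adjustment ran over both directions together. Limma-voom on the recovered reads called 0 members, where it called 1.34% of the 66294 unigenes higher. The fitted log2 difference of the members had a median of 4.05 and ran from 1.07 to 12.28, and the median over all tested unigenes was 0.24. After median-ratio scaling, which moved the median of all unigenes to −0.10, the median of the members was 3.72. The 28 members not called had a larger capsule range, with a median of 6.77 between highest and lowest stage, against 2.94 for those called. With a single gametophyte library, the error in this fit comes from the spread between capsule stages, so this split follows from how calls are made.

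Levels in the capsule differed between stages by a factor of 3.49 in the median member, taken as the highest over the lowest stage. The range was under 2 in 21 members and at least 5 in 36, or 26.7%. For comparison, 9796 other unigenes listed in all 6 libraries met the same limits on their capsule values and had at least the lowest capsule RPKM of the last member. Their median range was 2.68, and 16.8% had a range of at least 5. Their lowest capsule value was 0.951 times the gametophyte value in the median. The members' median length of 1231 bases lay near the 1310 bases of these comparators, and 34.1% of the members and 37.5% of the comparators were contigs of numbered clusters. These are descriptions, and none of the differences was tested.

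The most even member was rank 74, with 17.9, 20.5, 19.4, 16.6 and 19.5 RPKM in stages 1 to 5, against 0.791 RPKM (1 read) in the gametophyte. Its capsule reads numbered 30 to 39. Rank 71 was nearly as even on more reads, with 21.1, 19.8, 24.3, 18.8 and 24.1 RPKM, from 415 to 563 reads, against 1.30 RPKM (20 reads) in the gametophyte. Rank 73, the third most even, lay between 16.7 and 21.8 RPKM over the capsules, against 0.164 RPKM (1 read) in the gametophyte. At the other end, rank 121 had 3.39, 65.2, 8.48, 99.0 and 28.1 RPKM in stages 1 to 5, a range of 29.2, against 0.213 RPKM (1 read) in the gametophyte. Rank 83 had a range of 22.1, with 12.7, 280.1, 39.4, 173 and 107 RPKM, against 0.694 RPKM in the gametophyte. Both of these were high in stages 2 and 4 and low in stages 1 and 3. The third in range, rank 115, went the other way, with 64.9, 7.14, 30.5, 3.76 and 40.4 RPKM, against 0.326 RPKM in the gametophyte.

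Stage 2 held the highest capsule value of 43 members, more than any other stage, and stage 1 held the lowest value of 41. The highest value lay in stage 3 for 27 members, in stage 4 for 26, in stage 5 for 21 and in stage 1 for 18. The highest value lay in stage 2 in 31.9% of the members, against 17.1% of the comparators, and in stage 1 in 13.3% of the members, against 18.9% of the comparators. It lay in stage 4 in 19.3% of the members, against 16.0% of the comparators, and in stage 5 in 15.6% of the members, against 24.1% of the comparators. Stage 3, with 27 of the 135 members, held the highest value of 24.0% of the comparators. After median-ratio scaling, stage 2 still held the highest value most often, in 39 members, followed by stage 4 with 35. As deposited, the lowest value lay in stage 1 in 30.4% of the members, against 24.1% of the comparators. It lay in stage 4 in 23.0% of the members, against 24.1% of the comparators, and in stage 5 in 21.5% of the members, against 20.3% of the comparators, so that these 2 stages were near the background. In members, the lowest value lay in stage 4 for 31 as deposited and for 22 after this scaling, and in stage 5 for 29 and 37. The order of stages 4 and 5 by lowest values thus depended on the scaling, while the count for stage 1 was 41 under both. Members highest in stage 2 were lowest in stage 1 in 24 of 43 cases and lowest in stage 5 in 12. Members highest in stage 1 were lowest in stage 4 in 11 of 18. These crossed counts were not made for the comparators, so they have no background beside them. The first member by rank with its highest value in stage 5 was rank 18, of only 314 bases, with 226, 229, 104, 165 and 265 RPKM in stages 1 to 5, against 1.67 RPKM (2 reads) in the gametophyte.

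**Figure D3:**
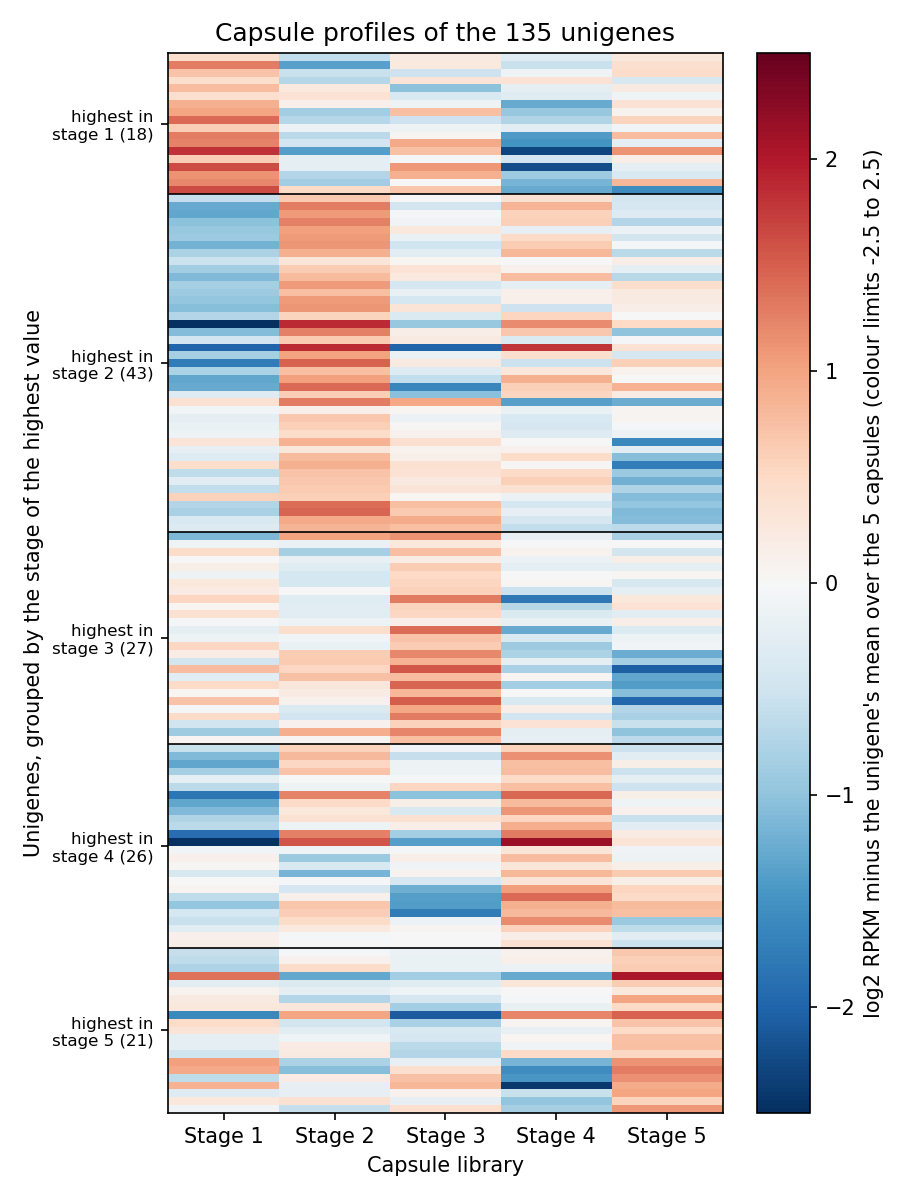
Capsule profiles of the 135 unigenes, 1 row each, as log2 RPKM minus the unigene's own mean over the 5 capsule libraries (red above, blue below), grouped by the stage of the highest value with the number in brackets. The block of 43 unigenes highest in stage 2 is the largest, and many of its rows are blue in stage 1 or stage 5.

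The 2 highest stages of a member were most often stages 2 and 4, in 34 members or 25.2%, against 14.9% of the comparators. Stages 2 and 3 followed with 20 members, or 14.8%, against 11.7% of the comparators. Next were stages 1 and 5 with 18 members, or 13.3%, against 15.1% of the comparators, and stages 1 and 3 with 17. Stages 1 and 3 were the highest pair in 12.6% of the members, against 21.3% of the comparators, among which this pair was the most frequent. These profiles occurred at very different levels. The member with the highest rank among those high in stages 1 and 5 was rank 24, with 163, 78.4, 139, 96.1 and 143 RPKM in stages 1 to 5, against 5.36 RPKM in the gametophyte. Rank 32 had the same pair and a wider range, with 353, 56.8, 74.8, 57.6 and 568 RPKM, against 1.80 RPKM in the gametophyte. Rank 35 was the first of the 13 members high in stages 4 and 5, with 57.8, 54.3, 56.6, 86.2 and 109 RPKM, against 5.05 RPKM in the gametophyte. That pair was highest in 9.63% of the members, near the 9.12% of the comparators. Ranks 24, 32 and 35 were picked after their values had been seen.

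Consecutive stages were then compared by the ratio of RPKM + 1, with a factor of 2 as the limit and no test, since each stage had 1 library. From stage 1 to stage 2, 48 members were higher and 19 lower, where 25.7% and 32.7% of all unigenes that reached 1 RPKM in at least one of these libraries were higher and lower. Among the comparators the shares were 16.1% higher and 15.2% lower. The median member was higher in stage 2 by 0.47 on the log2 scale. From stage 2 to stage 3, 16 members were higher and 26 lower, where 29% and 24.5% of all unigenes were, and 12.02% and 10.1% of the comparators. From stage 3 to stage 4, 19 were higher and 28 lower, where 27.3% and 33.6% of all unigenes were, and 10.7% and 18.9% of the comparators. From stage 4 to stage 5, 18 were higher and 27 lower, where 28.1% and 17.8% of all unigenes were, and 13.0% and 9.92% of the comparators. More members were higher than lower at the first step, and more were lower than higher at the steps to stages 3 and 5, also after median-ratio scaling. At the step to stage 4 the members leaned the same way as all unigenes and the comparators, their median was higher by 0.02 on the log2 scale, and after this scaling 24 were higher and 22 lower. All of these steps share libraries with their neighbours and are not independent.

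With the exact 95% counting interval of the read ratio wholly past 2-fold, the first step had 40 members higher and 13 lower, the last step 12 higher and 20 lower. Between stages 2 and 5, which are not neighbours, 14 members were higher in stage 5 and 42 lower, and 8 and 36 by the counting interval. In the same pair 24.6% of all unigenes were higher and 16.0% lower, and 9.78% of the comparators were higher and 12.2% lower. Among the members, stages 2 and 4 differed least, with 4 higher and 22 lower in stage 4. That is 19.3% of the members past 2-fold, against 11.7% of the comparators. Of all unigenes, 16.85% were higher and 19.13% lower in stage 4 than in stage 2. The comparators differed least between stages 1 and 3, where 27.4% of the members were past 2-fold, against 10.5% of the comparators. Of all unigenes, 13.15% were higher and 17.76% lower in stage 3 than in stage 1. Over the 135 members the Spearman correlation of RPKM between stages 2 and 4 was 0.93, against 0.93 over the 9796 comparators. Stages 1 and 3 had 0.93 over the members, against 0.94 over the comparators. The lowest value among the capsules was that of stages 1 and 4, 0.76 over the members, against 0.80 over the comparators. With the gametophyte it ran from 0.70 to 0.71 over the members and from 0.70 to 0.80 over the comparators. By the rule, the lowest capsule value was at least 10 times the gametophyte value in members and under 10 times in comparators. The correlations with the gametophyte use these same values and are a description. These are correlations across unigenes within single libraries, and unigenes are not replicates.

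Of the members, 89 were single unigenes and 46 were contigs, which belonged to 44 numbered clusters. The sources used here do not say what it means for contigs to carry one cluster number. In 18 of the 44 clusters no other contig was listed, and the other 26 held 39 contigs that were not members. Of the 39, 1 was listed in all 6 libraries with a lowest capsule value at least 10 times the gametophyte value. Of all 21844 contigs, 60 (0.275%) met this ratio, and 46 of the 60 were the members. Another 8 of the 39 were listed in every capsule library with 0 gametophyte reads, a pattern found in 6.65% of all contigs. For 10 of the 39 the gametophyte value lay above the lowest capsule value. Only 22 of the 39 reached 20 reads in any library, so that many were too low to show the ratio. Of these 22, 8 were listed in every capsule library with 0 gametophyte reads, and 8 had a gametophyte value above the lowest capsule value. For comparison, 6010 of the 12872 unigenes with a lowest capsule value of at least 1 RPKM had a gametophyte value at or above it. That set has a floor in the capsules, which the 39 contigs do not have.

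The contrast was largest in level in the cluster of rank 1. CL3401.Contig1, of 708 bases, had 9.58, 35.6, 12.8, 12.9 and 2.47 RPKM in stages 1 to 5, and 18.8 RPKM (51 reads) in the gametophyte. CL3401.Contig2, of 427 bases, had 41.1, 103, 48.9, 34.8 and 9.81 RPKM, and 57.0 RPKM (93 reads) in the gametophyte. In both, the capsule values overlapped the gametophyte value: stage 2 lay above it and the other 4 stages below. The mean capsule level was 0.778 and 0.835 times the gametophyte level, so neither mean reached a 2-fold difference. Stage 5 by itself lay more than 2-fold below the gametophyte in both contigs. CL3401.Contig3 of the same cluster stood far above its gametophyte level in every capsule. CL3401.Contig1 and CL3401.Contig2 also peaked in stage 2 and not in stage 3, unlike CL3401.Contig3.

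Another cluster held 3 members, of ranks 41, 105 and 121, the only cluster with more than 1. All 3 were higher in stages 2 and 4 than in the other stages, with 136 and 131 RPKM in stages 2 and 4 for rank 41, 44.8 and 45.9 RPKM for rank 105, and 65.2 and 99.0 RPKM for rank 121. In stage 1 they had 42.2, 4.98 and 3.39 RPKM, and in the gametophyte 1.24, 0.242 and 0.213 RPKM, from 3, 1 and 1 reads. The other 2 contigs of this cluster had their highest values in stage 4, 20.9 and 32.0 RPKM, and 0 reads in the gametophyte, where 3 reads would correspond to 0.288 and 0.257 RPKM.

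In a further cluster the member, rank 108, had 4.80, 70.4, 4.81, 66.8 and 24.8 RPKM in stages 1 to 5, against 0.249 RPKM (1 read) in the gametophyte. The other contig of that cluster had 91.7, 4.57, 133, 3.21 and 2.72 RPKM, against 34.6 RPKM (136 reads) in the gametophyte. The libraries in which the one was high were those in which the other was low. The RPKM summed over both contigs was 96.5, 74.9, 138, 70.0 and 27.5 in stages 1 to 5, against 34.9 in the gametophyte, so that the lowest capsule sum was 0.788 times the gametophyte sum. Over all 44 clusters, the summed RPKM kept a lowest capsule value at least 10 times the gametophyte value in 37. In 18 of the 44 the member was the only contig listed, so the sum kept the ratio by the rule itself. Only the 26 clusters with another contig could lose it. In 7 of these the ratio was under 10, and in 2 of the 7 it was under 1. For the cluster of rank 1 the summed ratio was 61.9, against 3828 for CL3401.Contig3 alone.

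**Figure D4:**
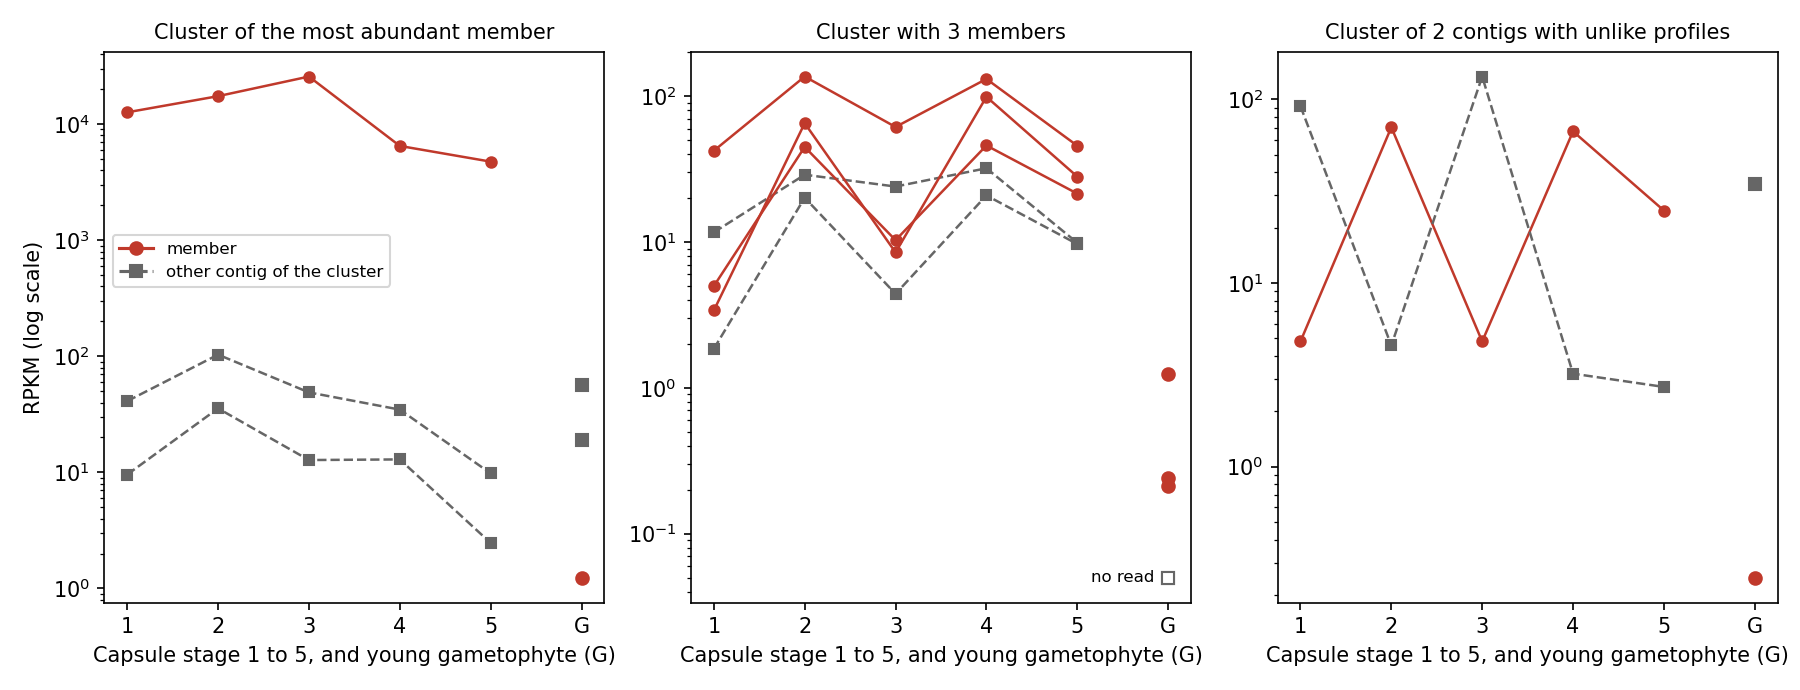
RPKM (log scale) of each contig in 3 clusters, for capsule stages 1 to 5 (joined) and the young gametophyte (G); red circles are members, grey squares other contigs of the cluster, and the open symbol marks 2 contigs with no gametophyte read. On the left the member of rank 1 stands far above 2 contigs whose gametophyte values, 18.8 and 57.0 RPKM, lie within their capsule range; on the right the 2 contigs are high in opposite libraries.

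Some single unigenes with neighbouring numbers also had alike profiles. Among the 89 single members, 2 pairs carried consecutive numbers. One pair was ranks 20 and 38, with 376, 329, 741, 150 and 102 RPKM for the first, and 313, 204, 545, 147 and 48.5 RPKM for the second, in stages 1 to 5. Their gametophyte values were 1.57 and 2.05 RPKM. The other pair was ranks 25 and 58, with 75.1, 219, 122, 228 and 91.6 RPKM for the first, and 26.9, 99.6, 68.8, 98.3 and 35.7 RPKM for the second, and 1.18 and 1.19 RPKM in the gametophyte. In the first pair both unigenes were highest in stage 3 and lowest in stage 5. In the second both were lowest in stage 1 and high in stages 2 and 4. What consecutive numbers mean in this assembly is not stated in the sources used here.

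The members were also set beside the capsule unigenes that had no gametophyte read. There were 5201 unigenes listed in all 5 capsule libraries and not in the gametophyte. The lowest capsule value had a median of 19.9 RPKM for the members, against 0.631 RPKM for these, and the median length was 1231 bases for the members, against 437 bases for these. The ratio of 10 holds members to at least 10 times the value of 1 gametophyte read, a floor that the others do not have. At a lowest capsule value of at least 10 RPKM there were 87 members and 82 such unigenes, and at 100 RPKM there were 20 and 3. In the opposite direction, 117 unigenes listed in all 6 libraries had a gametophyte value at least 10 times the highest capsule value. Their mean capsule level had a median of 1.68 RPKM, and their gametophyte level one of 66.7 RPKM. Among the 547 unigenes whose lowest capsule value reached 100 RPKM, the 20 members made up 3.66%, whereas 234 had a gametophyte value at or above their lowest capsule value.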

How the data were processed

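Deposited values were RPKM per unigene in 6 tables, 1 per library; the unit is named so per the file headers, and by its definition scales reads to length and library total. A dash means no value listed and was read as 0 in the fit. The sources used here name no assembler, aligner or counting rule, nor how reads matching several contigs were treated, so values of similar contigs are uncertain. A pooled sample was not analysed here. Members and lists were chosen with earlier results of these data known.

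Reads were recovered from the RPKM steps: library totals from repeated low values, then a length per unigene, the smallest from 200 to 15000 bases that gave whole reads in every library, within 0.9 of the last printed digit. Lengths were found for 100.0% of 74566 unigenes, and recovered reads made up 96.1% to 99.7% of the implied totals. Lengths with a factor in common with all reads can be too small. Lengths are less certain where fewer libraries list a unigene. Any whole multiple of a total would also give whole reads. The total taken was the largest for which the most frequent low values were single reads on whole lengths. All read numbers rest on taking those values as single reads.

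The fit used limma 3.58.1 (R 4.3.3) and its trend option on log2(RPKM + 1). Unigenes that never reached 1 RPKM were left out, and p-values were adjusted over the rest. Fold changes on this scale understate those of low unigenes. Read ratios have exact conditional-binomial 95% intervals, computed with SciPy 1.17.1. Alternatives were median-ratio scaling, other pseudocounts, filters and ratio limits, limma-voom, and leaving out each stage.

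Named were the 2 members with the highest lowest-capsule RPKM and the 2 contigs of members' clusters, with at least 20 reads in a library, of lowest mean capsule over gametophyte level. The limit of 200 was not reached, so the values beside it were replaced by those beside the ratio of 10. No functional lists, markers or sequences could be applied to unnamed unigenes.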

Additional observations from a re-analysis of the deposited data

How the results depend on the processing

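No paired analysis was possible because each group had 1 library. Of 54 recomputed values, 42 stayed within their limits, a factor of 1.5 for counts. The 135 unigenes meeting the rule became 51 with at least 5 gametophyte reads, 48 with the lower counting limit at 10, 421 at a ratio of 5 and 57 at a ratio of 20. Median-ratio scaling gave 99, of which 96 were members, and leaving out a stage gave 128 to 157, of which 113 to 123 were members. The 107 members called by limma became 0 with limma-voom on reads and 94 to 98 without a stage. Under the other 5 settings they became 83 to 129. The share of all tested unigenes called higher was 1.34% with limma-voom and 1.97% to 2.45% without a stage. Under the other 5 it ran from 0.904%, where 83 members were called, to 5.97%, where 129 were. The cause of these changes was not tested. In reads in place of summed RPKM, the members held 3.57%, 4.996%, 5.53%, 3.06% and 2.11% in stages 1 to 5, against 0.0444% in the gametophyte. With a ratio of 2 in place of 10, 6 and not 1 of the 39 other contigs met the members' direction. Counts between consecutive stages stayed within a factor of 1.5, and median-ratio scaling turned the step to stage 4 to 24 higher and 22 lower. Reads were fewest on the gametophyte side, with a median of 2 reads a member, and the rule itself picks low gametophyte values.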
